A study of Rattus norvegicus with 4 samples.

Results

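The transcripts of the corticosteroid receptors and of well-known glucocorticoid target genes were examined in the hippocampus of chronically stressed aged rats. The list held 10 genes: the receptor genes Nr3c1 and Nr3c2, the receptor co-chaperone genes Fkbp5 and Fkbp4, the steroid-activating enzyme gene Hsd11b1, and the target genes Sgk1, Tsc22d3, Klf9, Ddit4 and Zbtb16. Members were all probe sets to which the array annotation gave exactly 1 gene symbol, that symbol being one of these. There were 13 such probe sets of 9 genes among 31042 on the array (57 Affymetrix control probe sets not counted). No probe set was annotated to Zbtb16 alone, so that gene is not analysed here. Of the 13 probe sets, 10 reached a signal of 100 on 2 or more arrays and were tested, among 14791 tested in all.

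RNA came from hippocampi of male Wistar rats, 16 months old at dissection, which took place 4 h before the dark phase began. Stressed rats had gone through chronic unpredictable mild stress, a changing series of mild stressors, for 4 weeks from an age of 15 months, while nonstressed controls of the same age, sex and strain stayed in standard housing. Each group gave 2 arrays, labelled biological replicates, and the RNA on every array was a pool of 3 animals, so that values of single rats were averaged before measurement. In RNA of whole hippocampus, fewer cells of a type and less RNA per cell cannot be told apart.

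Corticosterone, the main glucocorticoid of the rat, enters cells and binds the mineralocorticoid receptor with high affinity and the glucocorticoid receptor with lower affinity. The hippocampus is rich in both receptors and is a known site of feedback on the stress axis. Unliganded receptors rest in a complex with heat shock proteins and co-chaperones, and liganded receptors move to the nucleus and change the transcription of target genes, several of which are used as readouts of glucocorticoid action.

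These transcripts differed little between the groups. At a Benjamini-Hochberg adjusted p under 0.05 from limma, 1 of the 10 tested probe sets was called, that of Ddit4, which fell in stressed rats. Over all tested probe sets 23.8% were called in either direction (1771 higher and 1744 lower) and 11.8% were lower. At unadjusted p under 0.05 none of the 10 was higher by limma and 2 were lower, those of Ddit4 and Tsc22d3, and the test the methods name gave 1 higher (Sgk1) and 1 lower (Tsc22d3). That test put 3642 of all 14791 tested probe sets under the same unadjusted threshold, in either direction. The matching count by limma over all tested probe sets was not made. No member reached a 2-fold difference with unadjusted p under 0.05, against 0.216% of all tested probe sets higher and 1.38% lower at these thresholds. The log2 fold changes (stressed minus nonstressed) of the members ran from -0.22 to 0.14 with a median of -0.02, beside a median of 0.02 over all tested probe sets. The median size of the difference, whatever its sign, was 0.08 for the members and 0.15 for all tested probe sets. The size was below the latter value at 9 of the 10 members, Ddit4 being the exception. Most members (9 of 10) were brighter than the median tested probe set, and sizes were not compared at matched signal.

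The promoters of 3 targets are shown because the results turn on these genes: Ddit4, which was called, Tsc22d3, which lay nearest to the threshold, and Fkbp5, a widely used readout of glucocorticoid action, which was not called. The sequences are the 250 bases before an annotated start site, from RefSeq on the rat assembly GRCr8, written 5′ to 3′ on the strand of the gene. Capitals mark every CCAAT box (CCAAT), GC box (GGGCGG) and TATA box (TATAAA) on either strand. Where a gene had several windows, the window with a TATA box is given.
Ddit4, chr20:28437038-28437287, minus strand: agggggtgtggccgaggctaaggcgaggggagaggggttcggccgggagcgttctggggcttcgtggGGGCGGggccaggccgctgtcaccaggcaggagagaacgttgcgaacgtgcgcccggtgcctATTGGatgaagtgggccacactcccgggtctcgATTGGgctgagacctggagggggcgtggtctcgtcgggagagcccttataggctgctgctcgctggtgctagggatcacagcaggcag
Tsc22d3, chrX:109010035-109010284, minus strand: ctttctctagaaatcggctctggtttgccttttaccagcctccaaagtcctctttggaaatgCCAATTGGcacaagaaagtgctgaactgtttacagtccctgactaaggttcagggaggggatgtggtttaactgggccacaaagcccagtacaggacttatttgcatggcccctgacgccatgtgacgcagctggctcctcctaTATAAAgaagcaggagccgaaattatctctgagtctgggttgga
Fkbp5, chr20:6543556-6543805, minus strand: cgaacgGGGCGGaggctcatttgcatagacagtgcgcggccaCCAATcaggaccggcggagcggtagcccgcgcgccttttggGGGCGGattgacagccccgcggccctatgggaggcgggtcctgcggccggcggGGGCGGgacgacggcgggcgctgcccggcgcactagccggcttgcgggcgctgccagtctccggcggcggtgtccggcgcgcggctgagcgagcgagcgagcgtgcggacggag

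Both the Ddit4 window and this Tsc22d3 window held 2 matches of the CCAAT box on either strand, those of Tsc22d3 overlapping each other. The Fkbp5 window held 1 CCAAT box and 3 GC boxes. Genes that were not called held more, as many or fewer CCAAT boxes, with 3 in the Klf9 window, 2 in that of Fkbp4 and 0 in those of Sgk1 and Nr3c1. The other Tsc22d3 windows held 0. RefSeq windows were found for 7 of the 10 genes, 12 windows in all, since Sgk1 and Tsc22d3 had 3 each and Nr3c1 had 2. The GC box was found in 9 of these 12 windows and in 30.5% of all 33469 promoter windows of the same length. The CCAAT box was found in 5 of 12 and in 34.0% of all windows, and the TATA box in 3 of 12 and in 12.9%. The glucocorticoid response element, searched as AGAACA, any 3 bases and TGTTCT, was in none of the 12 windows and in 0.012% of all. Its left part AGAACA, on either strand, was also in none of the 12, against 17.5% of all windows. These letters describe only the 250 bases searched.

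**Figure D1:**
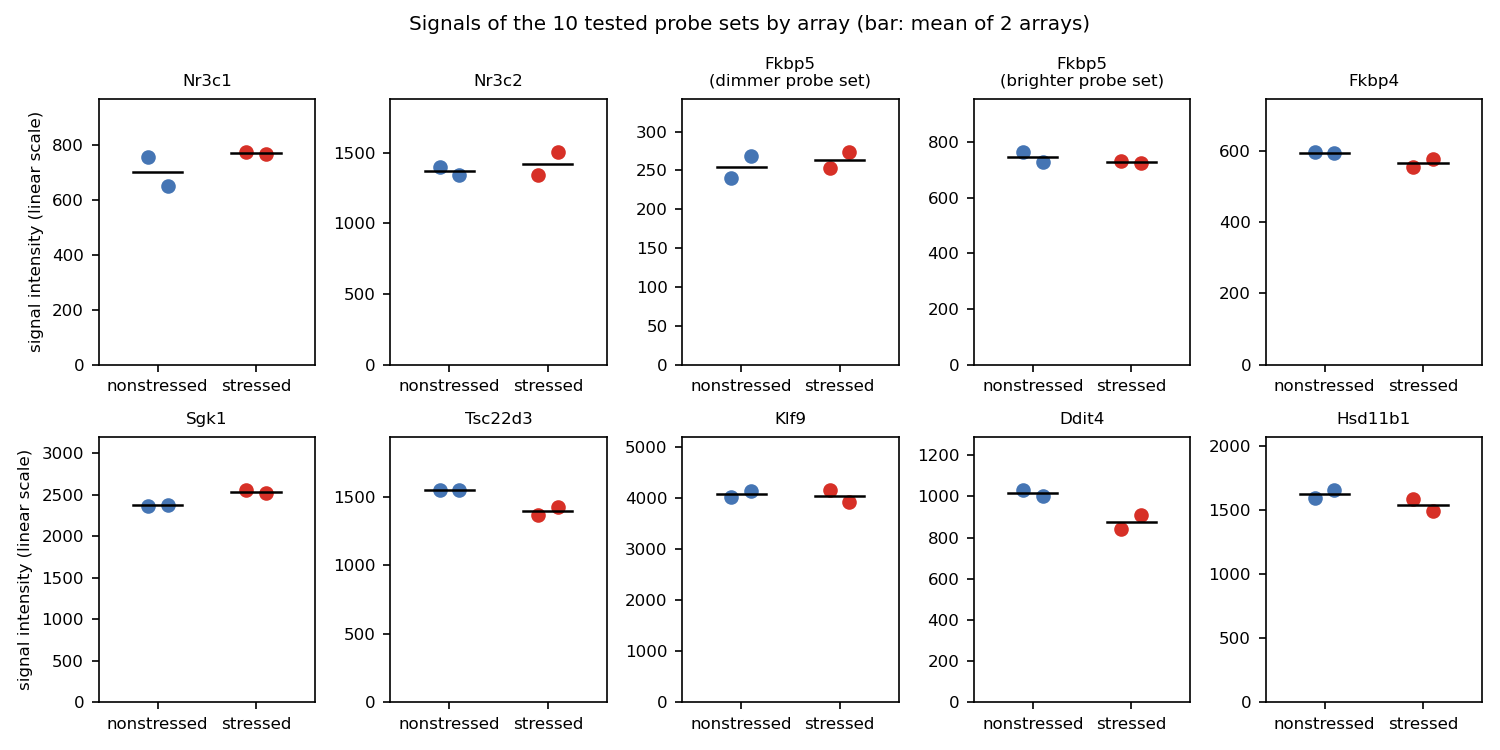
Signal intensity (linear scale, from 0) of the 10 tested probe sets on each array, nonstressed controls in blue and stressed rats in red, with a bar at the mean of the 2 arrays of a group. Ddit4 was at 841.0 and 907.4 in stressed rats and at 1031.7 and 1003.3 in controls, while the arrays of Nr3c2, Klf9 and Fkbp5 overlapped between the groups.

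The receptors came first. Nr3c1 encodes the glucocorticoid receptor. Its tested probe set (1368221_at) had signals of 775.9 and 767.9 in stressed rats and 756.3 and 652.3 in nonstressed controls. The stressed arrays lay above the controls, but control replicate 2 stood apart from the other 3 arrays, and the gap between the controls exceeded the difference from control replicate 1 to either stressed array. The log2 fold change was 0.14 (standard error 0.08, 95% interval -0.04 to 0.32, adjusted p = 0.238 from limma). Without control replicate 2 it was 0.03 and without control replicate 1 it was 0.24. In linear terms the interval held changes from -2.93% to 24.4%.

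A second Nr3c1 probe set (1368222_at) was dim, at 33.4 and 15.5 in stressed rats and 9.80 and 8.20 in controls. All 4 values were under the signal of 100 required for testing. When all probe sets were tested without this requirement, its log2 fold change of 1.34 had an adjusted p of 0.252 from limma. The 2 stressed arrays differed by 1.11 on the log2 scale, nearly as much as the groups did.

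Nr3c2 encodes the mineralocorticoid receptor. Signals were 1341.8 and 1505.0 in stressed rats and 1401.1 and 1341.6 in controls. The groups overlapped, since stressed replicate 1 lay level with the lower control and stressed replicate 2 was the highest array. The log2 fold change was 0.05 (95% interval -0.10 to 0.20, adjusted p = 0.596 from limma), which in linear terms holds changes from -6.51% to 14.9%. Without stressed replicate 2 the sign turned (-0.03).

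The balance of the receptors was also compared within each array, as the log2 ratio of Nr3c2 to Nr3c1 at their brightest probe sets. Relative to the control mean, this log2 ratio was -0.17 and 0.01 in stressed rats and -0.08 and 0.08 in controls. The groups overlapped, and the change of -0.08 had an exact permutation p of 0.667 (two-sided). With 2 arrays against 2, that test cannot give a p under 0.333.

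The co-chaperones followed. Fkbp5 encodes FKBP51, which lowers the affinity of the glucocorticoid receptor for its ligand and is itself induced by glucocorticoids. Its brighter probe set (1388901_at) had signals of 733.5 and 726.0 in stressed rats and 765.0 and 727.7 in controls. The groups overlapped, and control replicate 2 lay between the stressed arrays. The log2 fold change was -0.03 (standard error 0.06, 95% interval -0.17 to 0.10, adjusted p = 0.723 from limma). In linear terms the interval held changes from -10.9% to 7.34%.

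The dimmer Fkbp5 probe set (1380611_at) gave 253.2 and 273.6 in stressed rats and 240.3 and 268.9 in controls. These groups overlapped as well, the arrays of each group lying further apart than the group means. Its log2 fold change was 0.05 (95% interval -0.19 to 0.29, adjusted p = 0.759 from limma). The 2 probe sets thus differed in sign, and neither passed the test.

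Fkbp4 encodes FKBP52, a related immunophilin that aids the movement of liganded receptors to the nucleus. Signals were 556.4 and 578.8 in stressed rats and 597.3 and 594.4 in controls. Both stressed arrays lay below both controls, by a log2 fold change of -0.07 (95% interval -0.21 to 0.07, adjusted p = 0.447 from limma), or -0.04 without stressed replicate 1. The log2 ratio of Fkbp5 to Fkbp4 within an array, relative to the control mean, was 0.07 and 0.00 in stressed rats and 0.03 and -0.03 in controls. The ratio overlapped between the groups, with a change of 0.04 and an exact permutation p of 0.667 (two-sided).

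Hsd11b1 encodes the dehydrogenase that regenerates active corticosterone from its inert form within cells. Its signals were 1582.8 and 1490.4 in stressed rats and 1592.3 and 1655.9 in controls. The stressed arrays lay below the controls, but stressed replicate 1 lay just under control replicate 1. The difference on the log2 scale was -0.08 (95% interval -0.20 to 0.04, adjusted p = 0.299 from limma). Its size depended on single arrays, being -0.12 without stressed replicate 1, -0.04 without stressed replicate 2 and -0.05 without control replicate 2.

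The differences of the target genes were not all of one sign, and 1 of them passed the test. Ddit4 encodes REDD1, an inhibitor of the growth-promoting mTORC1 kinase complex. It was measured at 841.0 and 907.4 in stressed rats (874.2 ± 47.0, SD, n = 2 arrays) and at 1031.7 and 1003.3 in controls (1017.5 ± 20.1). Every stressed array was below every control array. Ddit4 fell by 0.22 on the log2 scale (standard error 0.06, 95% interval -0.36 to -0.08, adjusted p = 0.0312 from limma), to 85.9% of the control level. In size this change ranked at percentile 64.7 of all tested probe sets. The call was lost without stressed replicate 1 (adjusted p = 0.139), without control replicate 1 (adjusted p = 0.141) and without control replicate 2 (adjusted p = 0.104), by limma in each case. It was lost with the replicate number as a block (adjusted p = 0.0625). The call was also lost with no filter on dim probe sets (adjusted p = 0.0677), without an intensity trend in limma (adjusted p = 0.102) and with the test the methods name (adjusted p = 0.225). Over all 14 alternatives its log2 fold change ran from -0.27 to -0.17.

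Tsc22d3 encodes GILZ, a leucine zipper protein induced by glucocorticoids that restrains inflammatory signalling. The signals were 1366.1 and 1427.9 in stressed rats and 1551.2 and 1548.1 in controls. Both stressed arrays were lower than both controls, and the controls were nearly level. The Tsc22d3 difference in log2 units was -0.15 (standard error 0.05, 95% interval -0.26 to -0.04, unadjusted p = 0.0149 and adjusted p = 0.0579 from limma) and was not called. The adjusted p over its alternatives ran from 0.0479, with a signal of at least 200 required on 2 arrays, to 0.233.

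Sgk1 encodes a kinase that is induced by glucocorticoids and regulates ion channels. Its signals of 2558.1 and 2518.1 in stressed rats were above those of 2369.3 and 2377.4 in controls. The groups did not overlap, and the arrays of each group lay close together. The difference was 0.10 on the log2 scale (standard error 0.04, 95% interval -0.00 to 0.20, adjusted p = 0.139 from limma), or 106.9% of the control level, and was not called.

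Klf9 encodes a zinc finger transcription factor induced by glucocorticoids. Its tested probe set (1370209_at) had signals of 4158.3 and 3923.7 in stressed rats and 4016.8 and 4136.2 in controls. The groups overlapped fully, with the stressed arrays on either side of both controls. The log2 fold change was -0.01 (95% interval -0.12 to 0.10, adjusted p = 0.865 from limma). Its other probe sets were not tested. They had signals from 32.0 to 47.6 (1387882_at) and from 15.2 to 22.9 (1390076_at), and the groups overlapped at both.

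**Figure D2:**
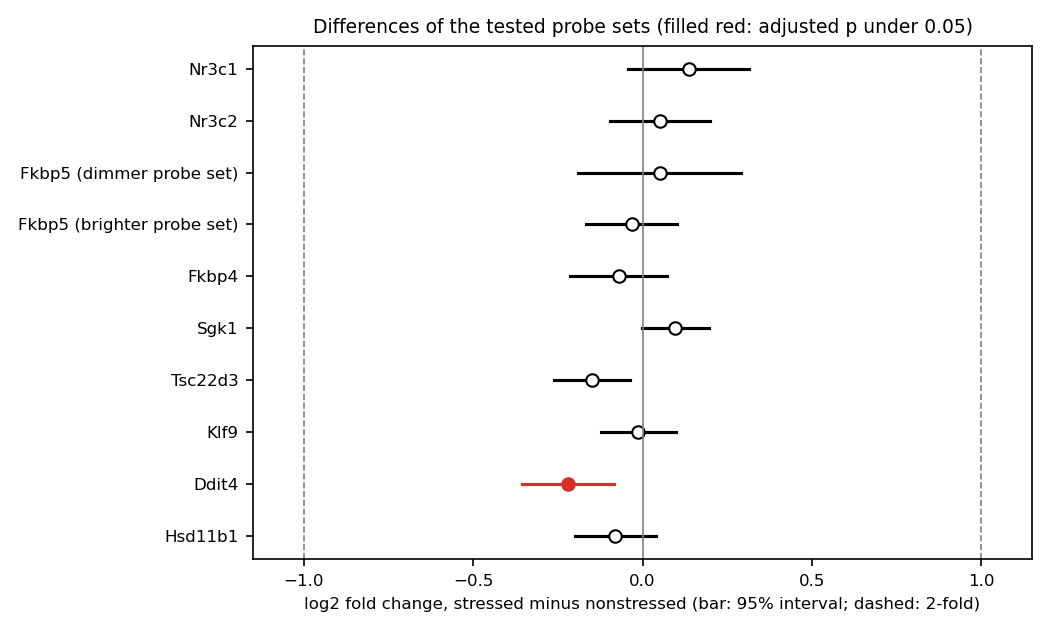
Log2 fold change of each tested probe set (point) with its 95% interval from limma (bar), and dashed lines at a 2-fold difference in either direction. The intervals lie between -0.36 and 0.32, all within the dashed lines, and the filled red point is Ddit4, the single call.

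Across the 10 tested probe sets, both stressed arrays were above both controls at 2 (Nr3c1 and Sgk1) and below both at 4 (Fkbp4, Hsd11b1, Ddit4 and Tsc22d3). Over all tested probe sets 34.9% had both stressed arrays above and 29.5% had both below. Of the 5 target and enzyme genes with a tested probe set, Sgk1 had a higher mean in stressed rats. Tsc22d3, Klf9, Ddit4 and Hsd11b1 had a lower mean, Klf9 by a log2 fold change of only -0.01. Fkbp5, also induced by glucocorticoids but counted with the co-chaperones, had probe sets of either sign (-0.03 and 0.05). The 95% interval held 0 at 8 of the 10 probe sets, and none of the 10 intervals reached beyond -0.36 or 0.32. The standard errors ran from 0.04 to 0.10, against a median of 0.09 over all tested probe sets, and 9 of the 10 members were brighter than the median tested probe set. The arrays of a group differed at the members by a median of 0.07 on the log2 scale for stressed rats and 0.05 for controls.

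The wider machinery of the receptors was described through 4 further lists, each gene counted at its brightest tested probe set. Together 56 of 85 listed genes could be tested, with 9 called higher, 7 called lower and 40 not called by limma. Over all genes 11.1% were called higher and 10.2% lower. The median log2 fold change of the 56 genes was 0.02. The calls of 6 of the 16 genes, Hspa4, Crebbp, Ep300, Ncoa1, Maoa and Cited2, were kept when each array was left out in turn, and were lost only with the test the methods name.

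Of the chaperones that fold and hold the receptors, 14 genes were tested, of which 1 rose and 2 fell. Hspa4, a nucleotide exchange factor for HSP70, had signals of 408.2 and 318.9 in stressed rats and 707.0 and 756.7 in controls. These groups were well apart, and Hspa4 was lower in stressed rats by limma, at -1.02 ± 0.11 in log2 units (standard error, adjusted p = 9.71e-04). Hsp90ab1, the constitutive HSP90 that holds unliganded receptors, rose by 0.18 at its brighter probe set, at 7162.0 and 6511.4 against 5993.7 and 6047.7 (adjusted p = 0.0471 from limma). The other Hsp90ab1 probe set had a log2 fold change of -0.10 and was not called, and the rise was lost without stressed replicate 1 (log2 fold change 0.11, adjusted p = 0.273) and without either control replicate. Stub1, a ubiquitin ligase of chaperone clients, fell by 0.17 (adjusted p = 0.0444 from limma), a call that was lost in each removal of an array. St13, Cdc37 and Ptges3, which help to assemble the receptor complex, had log2 fold changes of -0.13, -0.12 and -0.09 and were not called. The other St13 probe set was at 0.05.

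Among coactivators, corepressors and nuclear importers, 5 of 13 tested genes rose and 2 fell. The acetyltransferase genes Crebbp and Ep300, which serve many transcription factors, both rose. Crebbp was at 592.0 and 532.4 in stressed rats and 407.7 and 394.0 in controls, or 0.49 ± 0.08 on the log2 scale (standard error, limma adjusted p = 0.00453). Its other tested probe set, at 0.13, was not called. Ep300 was at 923.1 and 957.5 in stressed rats and 706.3 and 713.0 in controls, or 0.41 ± 0.05 on the log2 scale (standard error, limma adjusted p = 0.00218). At both genes every stressed array exceeded every control.

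Ncoa1, the steroid receptor coactivator SRC-1, rose at both tested probe sets. The brighter gave 2315.0 and 2368.1 in stressed rats and 1879.8 and 1872.5 in controls, or 0.32 ± 0.04 on the log2 scale (standard error, limma adjusted p = 0.00235), and the other rose by 0.17 (adjusted p = 0.0486). The probe sets of the corepressor gene Ncor1 disagreed. Its brightest rose by 0.22, from controls at 845.3 and 844.5 to 991.7 and 976.1, a dimmer one fell by a log2 fold change of -0.46, and another was not called. The call at its brightest probe set was lost in each removal of an array. The coregulator gene Nrip1 fell by 0.26, a call also lost in each removal, and the nuclear import gene Kpnb1 fell by 0.40, a call lost without control replicate 2 (adjusted p = 0.0725 from limma). Ipo13, which encodes an importin known to carry the glucocorticoid receptor, rose by 0.25, a call lost without stressed replicate 1, control replicate 1 or control replicate 2 (adjusted p 0.120, 0.147 and 0.0601 from limma). Med1 had a log2 fold change of 0.04 at its brightest probe set and fell by 0.58 at a dimmer one (both named after their values were seen).

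Among further genes known to respond to glucocorticoids in brain or other tissues, 28 were tested, of which 3 rose, 3 fell and 22 did not pass the test. The median log2 fold change of the 28 was -0.01. Nfkbia, an inhibitor of NF-κB, was at 281.9 and 317.8 in stressed rats and 221.3 and 218.5 in controls and rose by 0.44 (adjusted p = 0.0178 from limma). Irs2, an adaptor of insulin signalling, and Gpd1, a glycerol phosphate dehydrogenase known to respond to corticosterone in hippocampus, rose by 0.38 and 0.20. The calls of these 3 genes were each lost without stressed replicate 2 or control replicate 1. Nfkbia and Gpd1 also lost theirs without control replicate 2, and Irs2 also lost its call without stressed replicate 1. Without control replicate 1 the log2 fold change of Irs2 was 0.23, while those of Nfkbia and Gpd1 were 0.45 and 0.21.

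Cited2, a coregulator of hypoxia responses, was at 579.4 and 603.1 in stressed rats and at 896.9 on both control arrays. It changed by -0.60 ± 0.06 on the log2 scale (standard error, limma adjusted p = 4.35e-04), and the other Cited2 probe set fell by 0.22. Maoa, which breaks down monoamines, fell from 1784.7 and 1824.9 to 1436.8 and 1431.9, or -0.33 ± 0.05 on the log2 scale (standard error, limma adjusted p = 0.00234). Sult1a1, a sulfotransferase, fell by 0.32, a call lost without control replicate 2 (adjusted p = 0.0935 from limma). Per1, a clock gene with known glucocorticoid control, was named after its values were seen. It had signals of 270.2 and 393.4 in stressed rats and 256.5 and 232.9 in controls, and was not called (log2 fold change 0.42, adjusted p = 0.109 from limma), the stressed arrays lying far apart.

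Of 16 genes of steroid supply and stress peptides, 12 had a probe set and 1 could be tested. This was Abcb1a, which encodes a pump that moves some corticosteroids out of the brain. The brighter of its probe sets by mean log2 signal was at 138.7 and 151.7 in stressed rats and 97.3 and 120.2 in controls, and the log2 fold change of 0.42 was not called (adjusted p = 0.0861 from limma). Without control replicate 1 it was 0.27. Its other tested probe set was at 172.1 and 122.3 in stressed rats and 109.5 and 71.0 in controls, and its larger log2 fold change of 0.72 was not called either (adjusted p = 0.0689 from limma). At both Abcb1a probe sets the stressed arrays lay above the controls. The following genes were also named after their values were seen. Crh, the corticotropin-releasing hormone gene, was dim on all arrays, at 60.3 and 61.4 in stressed rats and 63.9 and 57.5 in controls. Hsd11b2, which inactivates corticosterone, gave signals of 5.30 to 20.4. Other genes of this list were under the signal required for testing on at least 3 arrays. Genes named from the other lists also had untested dim probe sets, with signals of 1.80 to 4.80 for Ncoa1, 2.20 to 81.7 for Crebbp, 1.90 to 21.5 for Ep300, 69.2 to 92.9 for Kpnb1 and 5.80 to 39.3 for Gpd1.

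**Figure D3:**
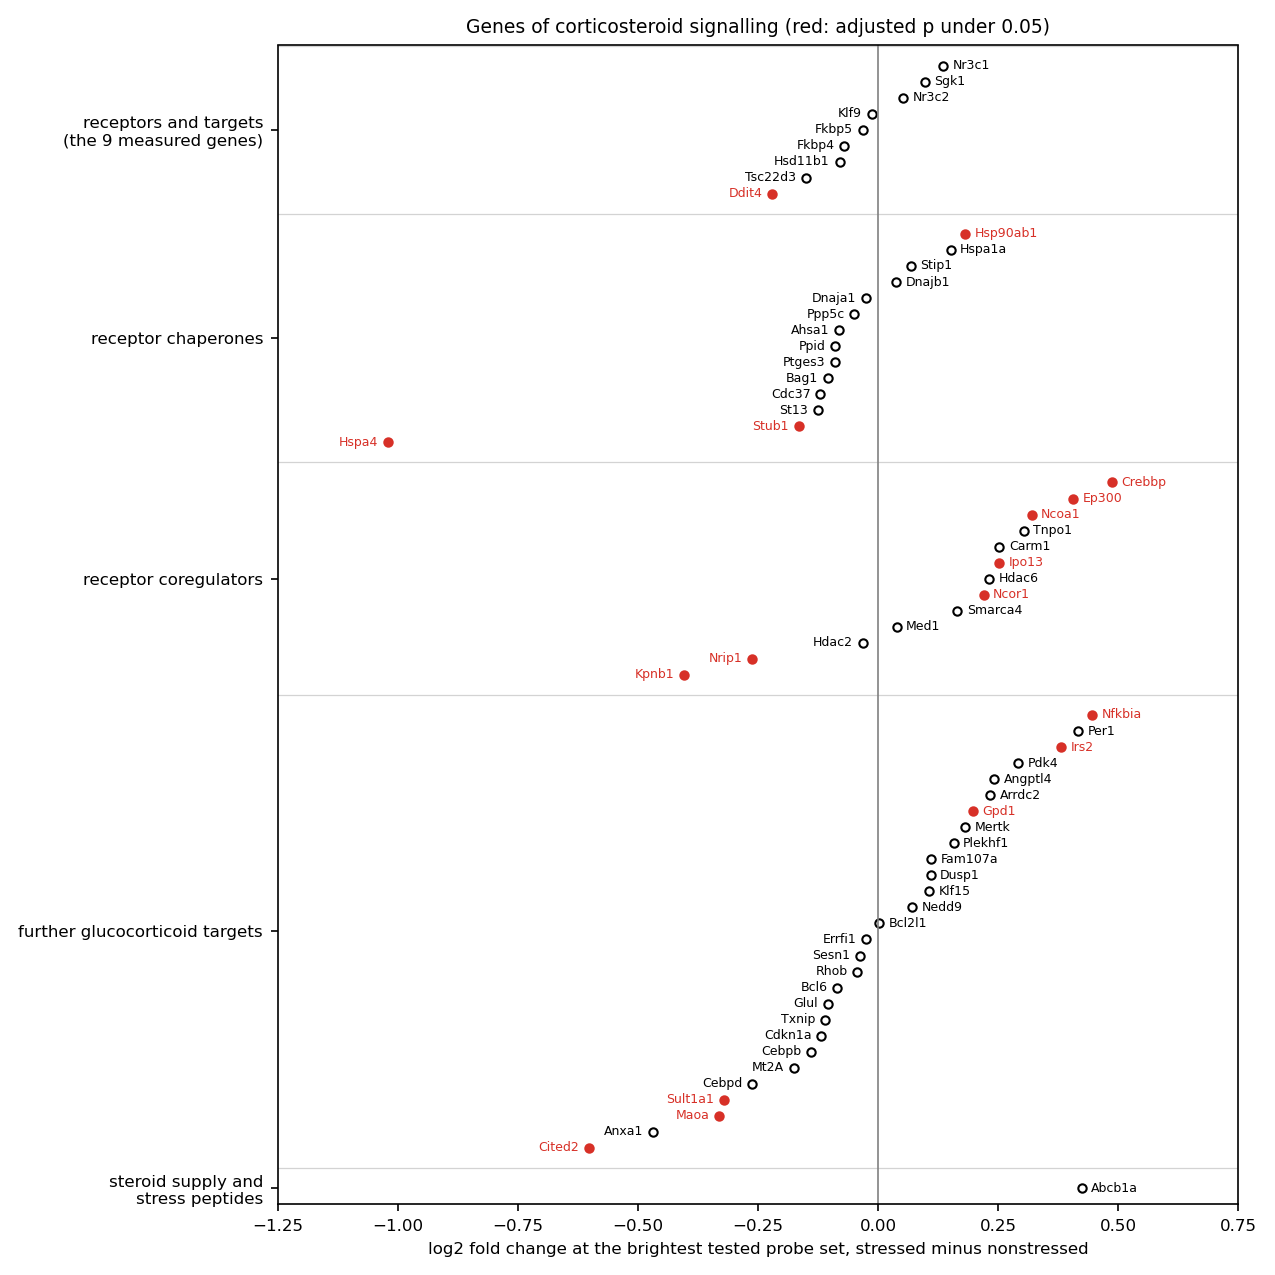
Log2 fold change of each tested gene at its brightest tested probe set, for the 9 measured receptor and target genes and the 4 further lists, with red points for adjusted p under 0.05 from limma. The receptor and target genes span -0.22 to 0.14, the chaperones -1.02 (Hspa4) to 0.18, the coregulators -0.40 to 0.49 and the further targets -0.60 to 0.44.

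Markers of hippocampal cells were present, and some differed between the groups. Prox1 of dentate granule cells, at 589.6 to 656.8, and Fibcd1 of CA1 neurons, at 681.8 to 712.1, were not called. Dsp of the dentate gyrus was called higher (0.91 in log2 units) and Pou3f1 of CA1 lower (-0.55). Summed CA1 signals were 3907 to 4075 in stressed rats and 4454 to 4476 in controls. At unadjusted p under 0.05 from limma, 2 CA1 markers were lower and 1 was higher. Summed dentate signals were 985.3 to 987.9 in stressed rats and 857.5 to 877.4 in controls. Markers of tissue next to the hippocampus also differed. Of 9 tested choroid plexus markers 7 rose and none fell by limma, 8 being higher and none lower at unadjusted p under 0.05, and their summed signal was 19210 to 20532 in stressed rats and 14706 to 16456 in controls. None of the listed choroid plexus markers was at 0, although Otx2 was at 2.50 to 8.60 at its dimmer probe set and Kl at 9.70 to 29.5. Of 7 tested meningeal markers 5 fell and 1 rose, with summed signals of 2469 to 2512 in stressed rats and 2986 to 2999 in controls. Of 8 endothelial and mural markers 4 rose and none fell by limma, and 4 were higher and none lower at unadjusted p under 0.05. Markers of other cells were counted by the same limma call, beside 11.1% of all genes called higher and 10.2% lower. Of the tested genes, 1 of 9 astrocyte markers rose and 1 fell, 1 of 9 oligodendrocyte markers rose and 2 fell, and 1 of 8 microglia markers rose and 2 fell. The astrocyte marker that rose, Slc1a3 (log2 fold change 0.37 at its brightest probe set), was called lower at another (-0.43). Aqp4 was not called at its brightest probe set (0.13) and was called lower at a dimmer one (-1.30). Over all 13 tested astrocyte probe sets 1 was called higher and 3 lower. Of neuronal markers, 1 of 3 of the dentate gyrus rose and 1 of 4 of CA1 fell. Of CA2 and CA3 markers 3 of 6 rose and 1 fell, and 4 of 10 of interneurons fell. At unadjusted p under 0.05 from limma, 5 astrocyte markers were higher and 2 lower, and 5 interneuron markers were lower and 0 higher. For the marker counts at unadjusted p, the share over all genes was not worked out. Summed astrocyte signals were 54335 to 55760 in stressed rats and 49031 to 50767 in controls. For interneurons they were 11537 to 11984 in stressed rats and 12986 to 13296 in controls. The single blood marker tested was not called, also at unadjusted p under 0.05, and 1 of 5 markers of thalamus and striatum fell. Their part in the values of the receptor and target genes was not tested.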

How the data were processed

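Total hippocampal RNA, pooled from 3 rats per array, was hybridised by the authors to GeneChip Rat Genome 230 2.0 arrays. The deposited intensity values are linear signals per probe set that the authors made with GCOS at a target value of 300. No normalization was added here. Median signals per array were 79.3 to 82.1, and 46.5% to 46.8% of probe sets reached a signal of 100. The number of arrays limits the precision, and each p measures only the spread between pools.

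Signals were taken to log2, with zeros set to 0.1. The groups were compared with limma 3.58.1 in R 4.3.3 (intensity trend, 7.74 moderated degrees of freedom) over the 14791 probe sets that reached a signal of 100 on 2 or more arrays, with Benjamini-Hochberg adjustment over all of them. The threshold was adjusted p under 0.05. At least 2-fold with unadjusted p under 0.05, the methods' thresholds, was counted separately, and the test the methods name was an alternative. Each member probe set was tested by itself. Genes of other lists were counted at their brightest tested probe set. All member probe sets were named, as were the 6 genes of each other list with the smallest p and their other probe sets; Ipo13, the remaining called gene, was added after its values were seen. The members and lists were chosen with earlier results of these data known. Marker lists of astrocytes, oligodendrocytes, microglia, choroid plexus, meninges, vessels (endothelial and mural), blood, dentate gyrus, CA1, CA2 and CA3, interneurons, and thalamus and striatum were summarised by counts and summed signals. Gene symbols came from the array annotation, updated through gene identifiers to RefSeq names (GRCr8), which added no member probe set. The script was tested on simulated data. Alternatives were other normalizations, filters, offsets, moderation and tests, the replicate number as a block, and each array left out in turn. Counts used python 3.11.15 with numpy 2.4.6 and pandas 2.3.3, and plots used matplotlib 3.10.9.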

Additional observations from a re-analysis of the deposited data

How the results depend on the processing

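The number of member probe sets called higher was 0 in all settings run. None passed 2-fold at unadjusted p under 0.05, which was not counted for the crossed pairing described below. With the settings as reported none passed 1.5-fold either, a threshold counted there only. At unadjusted p under 0.05 none of the members was higher and 2 were lower by limma, and 1 was higher and 1 lower by the test the methods name. By the latter test 3642 of all 14791 tested probe sets were under that threshold. The number called lower, 1 as reported, was 0 with no filter, without an intensity trend, with the test the methods name and with the replicate block, 2 with a signal of at least 200 on 2 arrays (Ddit4 and Tsc22d3), and 0 to 1 when an array was left out. The count of other genes called higher, 9 as reported, was 5 with no filter, 4 without an intensity trend and 3 to 9 when an array was left out, the lowest being 3 without control replicate 1, then 4 without control replicate 2. The count called lower, 7 as reported, was 3 to 5 when an array was left out, the 3 being without control replicate 2. The test the methods name called 0 other genes in either direction, against 6 higher and 8 lower of 56 at its unadjusted p under 0.05. Of all 14791 tested probe sets it called 18, against 3642 at its unadjusted p under 0.05. Each removal leaves 1 array in a group, which is assumed to vary like the other group.

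Of 140 member values under 14 alternatives each, 125 kept direction and side of the threshold, 7 (all of Ddit4) were no longer called, 1 (Tsc22d3) became called, and 7 changed sign, all at probe sets that were not called. With quantile normalization the log2 fold change of Klf9 was 0.0072. When an array was left out, it ran from -0.055 to 0.0288 for Klf9, from -0.0311 to 0.1345 for Nr3c2, from -0.0309 to 0.1313 for the dimmer and from -0.0681 to 0.004 for the brighter Fkbp5 probe set. The causes were not tested.

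Same-numbered arrays did not deviate together (Pearson r of -0.11 between the replicate differences of the groups, across tested probe sets), so the numbers were not taken as pairs. With the replicate block no member probe set was higher and 0 were lower, the adjusted p of Ddit4 being 0.0625, and 6 other genes were called in each direction. A crossed pairing, chosen after seeing the data, called 0 members higher and 2 lower, and 12 other genes higher and 10 lower.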
